A study of Mus musculus with 10 samples.

Results

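Dendritic cell subset markers were examined in RNA sequencing of mouse splenic B cells. They are 9 genes chosen by symbol from the count table, of 54532 genes in all, and every one of the 9 passed the filter on low counts that left 14283 tested genes. Flt3 and Zbtb46 mark dendritic cells broadly, Xcr1, Clec9a and Batf3 the cross-presenting type 1 cells, Sirpa, Cd209a and Clec10a the conventional type 2 cells, and Siglech the plasmacytoid cells. The fibrosis group (5 libraries, LF in the labels) came from mice given intraperitoneal carbon tetrachloride for 4 weeks, a solvent that injures hepatocytes and leads to liver fibrosis. The control group (5 libraries, WT) came from wildtype mice. No source used here gives the strain, sex or age of the mice, any vehicle injection, or how B cells were isolated. Nor do the labels tie libraries to separate animals, and the p-values therefore rest on a spread among libraries that may be technical in part.

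Dendritic cells take up antigen and present it to T cells. They develop from marrow progenitors under Flt3 ligand. Type 1 cells depend on the factors Irf8 and Batf3 and excel at presenting engulfed antigen to CD8 T cells. Type 2 cells, which depend in the spleen on Irf4 and Notch2, mainly serve CD4 T cells, and plasmacytoid cells, which depend on Tcf4, make type I interferon. In a spleen, all of them lie beside the B cells and share some genes with them, including Irf8, Relb, Ccr7, Tcf4 and Spib.

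Libraries held 13439100 to 17069393 counts in fibrosis and 15912080 to 17954551 in control. The 14 B cell markers, which define the labelled cell type, summed to 8643 to 12358 CPM in fibrosis and 8524 to 9768 CPM in control (CPM, counts per 1000000 after TMM scaling; values with ± are mean and SD of CPM or FPKM, n = 5 each, or a log2 change and its SE). Fibrosis libraries 4 and 5 stood apart from fibrosis 1 to 3. Their B cell markers summed to 8643 and 9056 CPM, against 11517 to 12358 CPM in fibrosis 1 to 3. Fibrosis 4 and 5 had summed levels of 16 macrophage markers of 5144 and 5684 CPM, against 1498 to 1633 CPM in fibrosis 1 to 3 and 1921 to 3558 in control. Of 12 platelet markers, 11 were tested and all 11 rose, with summed levels of 382 to 1542 CPM in fibrosis and 221 to 278 CPM in control. Of 16 erythroid markers, 11 fell. Over all tested genes, 18.6% were higher and 17.2% lower. Summed levels of the erythroid markers overlapped through fibrosis 4 alone, at 7872 CPM. Fibrosis 1, 2, 3 and 5 were at 1012 to 3403 CPM and control at 3989 to 6421 CPM. No macrophage, platelet or erythroid marker was at 0 in all libraries, and the untested platelet marker, Gp1bb, had 1 count in each group.

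In fibrosis, 4 of the 9 markers were higher (adjusted p below 0.05 in the quasi-likelihood test of edgeR) and 0 were lower. These 4 were the Flt3 ligand receptor gene Flt3 and all 3 type 1 markers, at 1.86 to 2.70 times their control level. The type 2 and plasmacytoid markers and Zbtb46 did not pass. Before adjustment, 6 markers were higher at a p below 0.05, Cd209a and Clec10a being added, and 0 were lower, while DESeq2 called 4 higher and 0 lower. Over all 14283 tested genes 18.6% were higher and 17.2% lower. For the same 4 markers every fibrosis library lay above every control library, a pattern that 11.4% of tested genes showed, with 14.0% showing the opposite. The members' median log2 change was 0.60, against 0.05 over all tested genes. In bulk RNA, more cells of a type and more RNA per cell cannot be told apart.

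**Figure D1:**
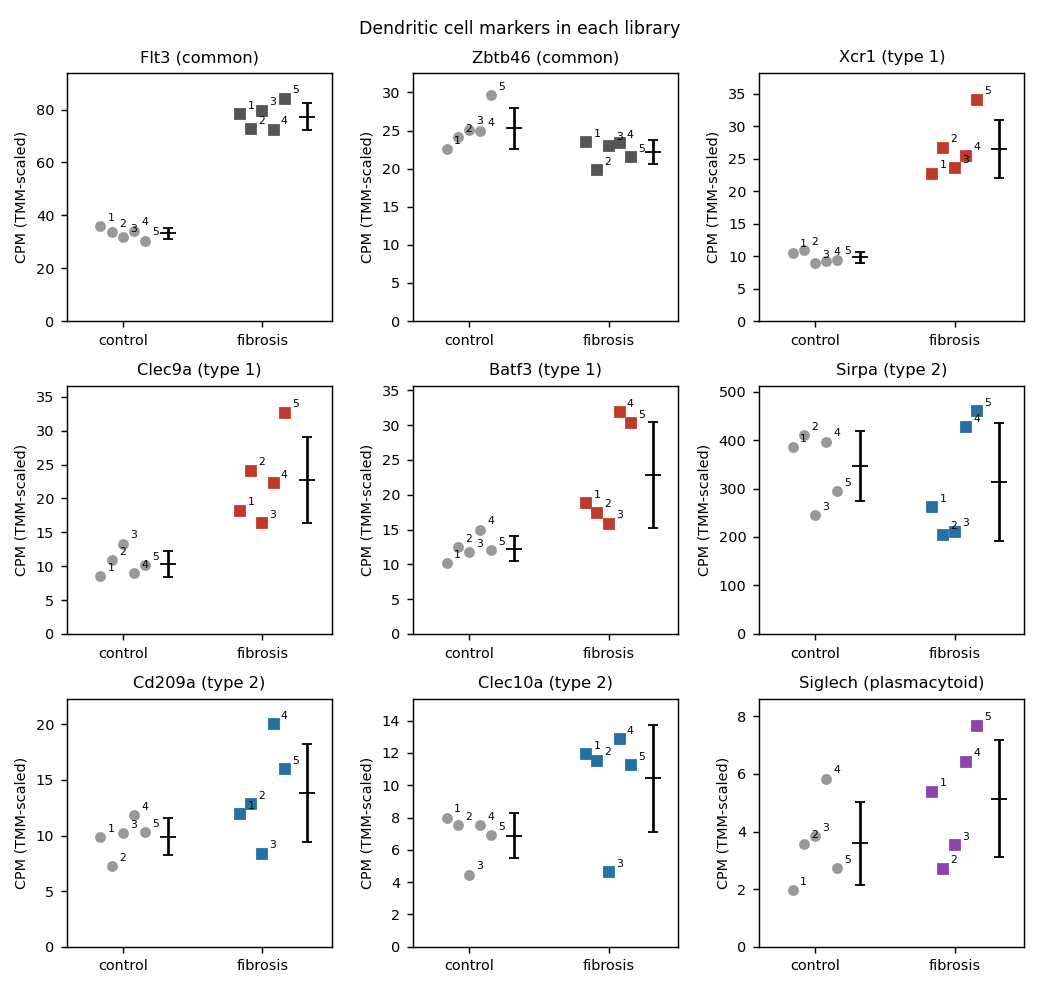
Level of each of the 9 markers in every library (vertical axes: CPM after TMM scaling, each starting at 0; numbers: replicate; black bars: mean ± SD). Fibrosis libraries lie above all controls for Flt3, Xcr1, Clec9a and Batf3 and overlap them for the other 5 genes.

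Flt3 and Xcr1 had the smallest p-values of the 9, and no annotated exon lies in the stretch upstream of their start sites, so that stretch is shown for both. These are the 250 bases before the start site from RefSeq's promoters on GRCm38.p6, read 5′ to 3′ on the gene's minus strand, with capitals marking the E-box CANNTG. The Flt3 stretch is chr5:147400490-147400739 and the Xcr1 stretch is chr9:123862030-123862279.
Flt3: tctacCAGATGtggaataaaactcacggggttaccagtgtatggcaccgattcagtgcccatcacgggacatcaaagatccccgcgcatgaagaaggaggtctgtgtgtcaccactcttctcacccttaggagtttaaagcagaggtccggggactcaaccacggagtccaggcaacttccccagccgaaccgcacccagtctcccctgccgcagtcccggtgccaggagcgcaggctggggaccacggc
Xcr1: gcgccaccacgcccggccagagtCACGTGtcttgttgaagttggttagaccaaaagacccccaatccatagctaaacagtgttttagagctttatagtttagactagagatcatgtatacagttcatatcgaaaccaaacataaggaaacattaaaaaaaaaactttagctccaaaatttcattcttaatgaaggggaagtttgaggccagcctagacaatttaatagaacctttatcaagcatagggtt
Each of these stretches holds 1 E-box, and 66.2% of 32851 upstream stretches of this length hold at least 1. The pattern CANNTG covers sites of E proteins such as Tcf4 but is not specific to them. On both strands, neither contains TGANTCA of AP-1 factors such as Batf3 (in 6.75% of all stretches) or GAGGAAG of PU.1 (in 10.6%). Neither of these motifs contains the E-box. Absence of these letters from the stretch says nothing of whether a factor acts on the gene. RefSeq promoters matched 7 of the 9 markers.

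Flt3 encodes the receptor tyrosine kinase for Flt3 ligand, which dendritic cells keep from the progenitor stage onwards and which some early B cell precursors also carry. The gene lies on chromosome 5 (147330741 to 147400489, minus strand, GRCm38). Its level was 78.2, 72.5, 79.5, 72.3 and 84.1 CPM in fibrosis 1 to 5, and 36.0, 33.6, 31.8, 34.2 and 30.4 CPM in control 1 to 5. Every fibrosis library was above the highest control, the spread was narrow in both groups, and fibrosis 4 and 5 did not stand apart. From 33.2 ± 2.16 to 77.3 ± 5.00 CPM, its log2 change was 1.22 ± 0.08 (SE; adjusted p = 9.37e-06 by edgeR). It rested on 5991 counts in fibrosis and 2973 in control.

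Zbtb46 encodes a zinc finger factor that, among myeloid cells, is restricted to conventional dendritic cells and that erythroid progenitors and endothelium also express. It lies on chromosome 2 (181387762 to 181459426). In fibrosis 1 to 5 it was at 23.5, 19.8, 23.0, 23.3 and 21.5 CPM, and in control 1 to 5 at 22.6, 24.1, 25.1, 24.9 and 29.6 CPM. The groups overlapped through control 1 alone, and no fibrosis library was above the control mean. The log2 change of Zbtb46 was -0.19 ± 0.10 (adjusted p = 0.155 by edgeR). It passed with libraries scaled by their totals only (-0.29, adjusted p = 0.0416; 0.0416 to 0.352 over all alternatives), a scaling that shifted the median gene by -0.11. The erythroid markers fell in the same comparison, and their part in the value of Zbtb46 was not tested.

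Xcr1, the receptor for the chemokine Xcl1 that activated CD8 T and NK cells release, is confined to type 1 cells among dendritic cells. It lies on chromosome 9 (123852315 to 123862029). Fibrosis 1 to 5 held 22.7, 26.7, 23.6, 25.5 and 34.1 CPM of Xcr1, and control 1 to 5 held 10.5, 11.0, 8.93, 9.28 and 9.45 CPM. The lowest fibrosis library was thus well above the highest control, and fibrosis 5 was the highest. The log2 change was 1.43 ± 0.13 (adjusted p = 1.36e-05 by edgeR), the largest of the 9 markers, on 2043 and 879 counts.

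Clec9a encodes a lectin-like receptor that binds actin exposed by dead cells and routes their antigens to cross-presentation. It lies on chromosome 6 (129408862 to 129424763). Its level was 18.2, 24.1, 16.3, 22.3 and 32.7 CPM in fibrosis 1 to 5 and 8.47, 10.8, 13.3, 8.94 and 10.2 CPM in control 1 to 5. Fibrosis 3, the lowest of its group, was still above control 3, the highest control. Clec9a rose by 1.13 ± 0.19 (adjusted p = 0.000511 by edgeR).

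The 5′ end of Clec9a overlaps its neighbour Clec1b, which encodes the platelet receptor CLEC-2 and is read from the same strand. The GENCODE M21 annotation places 184 of the 3293 exon bases of Clec9a (5.59%) inside an exon of Clec1b, so a strand-specific count could not separate them there. Clec1b was at 12.8, 14.6, 28.8, 55.6 and 69.7 CPM in fibrosis 1 to 5 and at 8.26 to 14.7 CPM in control (log2 change 1.78 ± 0.45, adjusted p = 0.00980 by edgeR; 0.00163 to 0.0624 over all alternatives, with the call lost without the filter on low counts and with voom). Among the fibrosis libraries, fibrosis 5 was the highest for both genes, and fibrosis 2 was second highest for Clec9a and second lowest for Clec1b. The part of Clec1b reads in the rise of Clec9a was not tested. Without fibrosis 4 and 5, Clec1b was at 0.84, down from 1.78, and Clec9a at 0.92 (adjusted p = 0.00107 by edgeR).

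Batf3 encodes an AP-1 family factor needed for type 1 cells, and activated lymphocytes express it too. It lies on chromosome 1 (191097847 to 191108945). The fibrosis libraries 1 to 5 held 18.8, 17.4, 15.9, 31.9 and 30.3 CPM, and the controls 10.2, 12.4, 11.7, 15.0 and 12.1 CPM. Fibrosis 4 and 5 stood well above fibrosis 1 to 3, which were closer to the highest control. Batf3 rose by 0.89 ± 0.20 (adjusted p = 0.00384 by edgeR). Without fibrosis 4 and 5 the change was 0.51 (adjusted p = 0.0109). With libraries scaled by the summed counts of 14 B cell genes it was 0.72 and did not pass (adjusted p = 0.0730; 1.71e-07 to 0.0730 over all alternatives), while Flt3, Xcr1 and Clec9a passed under that scaling, which shifted the median gene by -0.23.

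**Figure D2:**
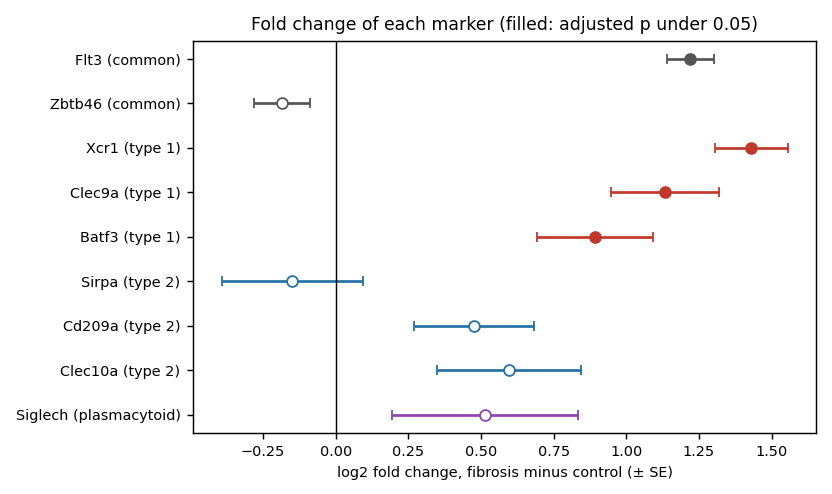
Log2 fold change of each marker (horizontal axis, fibrosis minus control; bars: ± SE; filled points: adjusted p under 0.05 by edgeR). The filled points are Flt3 (1.22), Xcr1 (1.43), Clec9a (1.13) and Batf3 (0.89), while Zbtb46 and Sirpa lie below 0.

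Among the type 2 markers, Sirpa encodes an inhibitory receptor for CD47 that macrophages, monocytes and neutrophils also carry. It lies on chromosome 2 (129592835 to 129632228). Its level was 261, 205, 211, 426 and 460 CPM in fibrosis 1 to 5 and 385, 410, 245, 397 and 295 CPM in control 1 to 5. Fibrosis 4 and 5 were above every control, and fibrosis 2 and 3 below every control. The log2 change was -0.15 ± 0.24 (adjusted p = 0.673 by edgeR). Without fibrosis 4 and 5 Sirpa was lower, at -0.61 (adjusted p = 0.0155; 0.0155 to 0.937 over all alternatives), and in that fit 13 of 16 macrophage markers and 7 of 14 monocyte markers were lower too, against 18.8% of all tested genes. Neutrophil markers summed to 4076 and 4969 CPM in fibrosis 4 and 5, 475 to 1762 CPM in fibrosis 1 to 3 and 842 to 2113 CPM in control. Without fibrosis 4 and 5, 0 of 14 neutrophil markers were called lower, with a median log2 change of -0.53. In the full set 1 macrophage marker was higher and 1 lower, and 4 monocyte markers were lower. The part of these cells in the value of Sirpa was not tested.

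Cd209a, a mouse homologue of the C-type lectin DC-SIGN, lies on chromosome 8 (3743397 to 3748984). It was at 11.9, 12.8, 8.38, 20.0 and 15.9 CPM in fibrosis 1 to 5 and at 9.84, 7.26, 10.2, 11.8 and 10.3 CPM in control 1 to 5. All fibrosis libraries but fibrosis 3 were above every control. The change of 0.48 ± 0.21 did not pass (adjusted p = 0.0885 by edgeR). It passed without fibrosis 3 (0.59, adjusted p = 0.0189) and with no filter on low counts (0.42, adjusted p = 0.0490), and was 0.17 without fibrosis 4 and 5 (adjusted p = 0.499).

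Clec10a encodes a galactose-type C-type lectin and lies on chromosome 11 (70156197 to 70170834). Fibrosis 1 to 5 held 11.9, 11.5, 4.61, 12.8 and 11.3 CPM, and control 1 to 5 held 7.98, 7.54, 4.47, 7.52 and 6.91 CPM. Fibrosis 3 was again the exception, at the level of the lowest control. The change of Clec10a was 0.60 ± 0.25 (adjusted p = 0.0765 by edgeR), and 0.77 without fibrosis 3 (adjusted p = 0.00334; 0.00334 to 0.381 over all alternatives). It also passed with no filter on low counts (0.55, adjusted p = 0.0139).

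Siglech, a sialic acid-binding lectin gene of plasmacytoid cells, lies on chromosome 7 (55768178 to 55778925). Its level was 5.38, 2.71, 3.53, 6.42 and 7.68 CPM in fibrosis 1 to 5 and 1.97, 3.58, 3.83, 5.83 and 2.73 CPM in control 1 to 5. Only fibrosis 4 and 5 were above all controls. With 390 counts in fibrosis and 321 in control, it had the fewest counts of the 9 and the widest standard error (0.51 ± 0.32, adjusted p = 0.230 by edgeR). The coefficient of variation between libraries was 39.7% in fibrosis and 40.5% in control. Without fibrosis 4 and 5 the change of Siglech was 0.12 (adjusted p = 0.809).

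**Figure D3:**
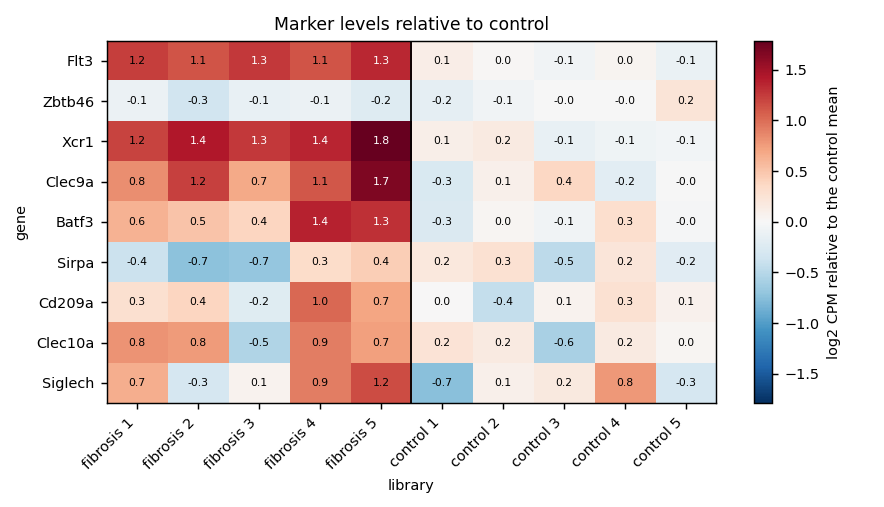
Log2 CPM of each marker (rows) in each library (columns) relative to the marker's control mean. Flt3 is raised evenly over fibrosis 1 to 5 and Xcr1 is highest in fibrosis 5, whereas Batf3, Sirpa, Cd209a and Siglech are highest in fibrosis 4 and 5.

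Per length, the order of the markers' levels could be compared on the authors' FPKM. In control, Sirpa was the highest at 70.5 ± 15.1 FPKM, followed by Batf3 (7.67 ± 1.10), Cd209a (6.24 ± 1.04) and Flt3 (5.37 ± 0.367). Clec9a (3.13 ± 0.552), Zbtb46 (2.97 ± 0.311), Clec10a (2.37 ± 0.496), Xcr1 (2.20 ± 0.203) and Siglech (1.06 ± 0.428) followed. Neighbouring values from Batf3 to Flt3, and from Clec9a to Xcr1, had overlapping spreads. In fibrosis Sirpa stayed the highest at 62.3 ± 22.8 FPKM, and Batf3 (14.0 ± 4.41) and Flt3 (12.3 ± 0.666) came next with overlapping spreads. Cd209a (8.57 ± 2.65), Clec9a (6.76 ± 1.69), Xcr1 (5.84 ± 0.809) and Clec10a (3.54 ± 1.14) followed, with overlapping spreads from Cd209a to Xcr1. Zbtb46 (2.57 ± 0.222), its spread overlapping that of Clec10a, and Siglech (1.49 ± 0.562) were the lowest.

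Whether single markers of different subsets changed by different amounts was tested on their log2 ratio within each library. Xcr1 stood for type 1, Cd209a for type 2 and Siglech for plasmacytoid cells. Xcr1 had the largest log2 change of the type 1 markers (1.43, against 1.13 for Clec9a and 0.89 for Batf3). Of the type 2 markers, Cd209a (0.48) lay between Sirpa (-0.15) and Clec10a (0.60). Ratios of other pairs were not tested, so the results hold for these markers and not for the subsets as wholes. The ratio of Xcr1 to Cd209a was 0.98 ± 0.41 in fibrosis and 0.00 ± 0.36 in control, a difference of 0.97 (two-sided exact permutation p = 0.0159, adjusted p = 0.0476 over 3 ratios, n = 5 each). The ranges overlapped, at 0.35 to 1.48 in fibrosis and -0.35 to 0.58 in control. Leaving out 1 library gave differences of 0.85 to 1.13, and the call was lost without fibrosis 1, 2, 3 or 5 or control 3, 4 or 5 (adjusted exact permutation p = 0.0714 in each). The ratio of Xcr1 to Siglech differed by 0.91 (exact permutation p = 0.0397, adjusted p = 0.0595), and it passed without control 1 (1.12, adjusted exact permutation p = 0.0238). The ratio of Cd209a to Siglech differed by -0.06 (exact permutation p = 0.841, adjusted p = 0.841).

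Further genes of each subset were read from lists made for this tissue. Over 5 lists, 87 distinct genes were tested, of which 46 were higher and 7 lower in fibrosis. The shares over all tested genes, to be set beside this and the list counts of the same fit that follow, were 18.6% and 17.2%. Of 18 other type 1 genes, 14 were higher and 1 lower, with a median log2 change of 0.78. In all 10 libraries the groups did not overlap for 10 of these genes in the direction of fibrosis and for 1 in the other. Of all tested genes, 11.4% and 14.0% showed these patterns. Itgae, the CD103 integrin chain, rose by 1.81 ± 0.19 (adjusted p = 3.15e-05 by edgeR), from 7.67 ± 1.77 to 26.8 ± 6.79 CPM. Tlr3, the sensor of double-stranded RNA, rose by 1.41 ± 0.16, the profilin sensor gene Tlr11 by 1.28 ± 0.17, the late endosome GTPase gene Rab7b by 1.01 ± 0.12 and the lysosomal amidase gene Naaa by 0.95 ± 0.11. Irf8, which B cells also express, rose by 0.55 ± 0.09. Summed levels of the 18 type 1 genes overlapped, at 3328 to 3846 CPM in fibrosis and 3025 to 3330 CPM in control. As B cells express some of the 18, the list counts do not separate the cell types.

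Cd8a, which type 1 cells of the mouse spleen share with CD8 T cells, was at 33.8, 43.5, 21.6, 35.5 and 57.0 CPM in fibrosis 1 to 5 and at 18.9 to 22.7 CPM in control (0.85 ± 0.20, adjusted p = 0.00539 by edgeR; 0.65 and not passing with B cell gene scaling, adjusted p = 0.0721). Fibrosis 3 lay within the control range. Of 16 T cell markers, Cd8a among them, 5 were higher and 0 lower, with a median log2 change of 0.66. Of 14 NK cell markers, 9 were higher and 0 lower, with a median of 0.65. T cell markers summed to 136 to 253 CPM in fibrosis and 110 to 155 CPM in control, and NK cell markers to 216 to 381 and 157 to 248 CPM. Cd3e, a chain of the T cell receptor complex, was at 2.25 CPM on average in fibrosis (adjusted p = 0.0787 by edgeR). It was among the 11 T cell markers that did not pass, and it was picked after values were seen. Cd3e does not stand for the 5 T cell markers that were higher. The part of these cells in the rise of Cd8a was not tested. Cadm1, an adhesion molecule of type 1 cells, was at 0.49 ± 0.21 (adjusted p = 0.0857 by edgeR). Cadm1 was at 0.26 without fibrosis 5 and 0.10 without fibrosis 4 and 5, and it passed without fibrosis 1 (0.61), without fibrosis 3 (0.56) and with no filter (0.43), the adjusted p being 0.0318, 0.0453 and 0.00783. Wdfy4, a cross-presentation gene that B cells express strongly, was at 0.26 ± 0.14 (adjusted p = 0.163 by edgeR; -0.0072 with B cell gene scaling, and 0.46 without fibrosis 4 and 5, adjusted p = 0.00153). Cd24a was the lower member, at -0.99 ± 0.12. Erythroid cells and immature B cells express it as well, and the fall of the erythroid markers was not tested as part of its change.

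Genes of conventional dendritic cells in general were higher in 10 and lower in 1 of 14 tested, with a median of 0.65. Itgax, the CD11c integrin chain, rose by 0.62 ± 0.08 from 75.5 ± 4.48 to 116 ± 10.6 CPM. Relb, an NF-kB subunit, rose by 0.67 ± 0.07, Adam23 by 0.73 ± 0.10 and Fgl2 by 1.00 ± 0.16. The receptor gene Csf2ra was lower at -0.36 ± 0.13 (adjusted p = 0.0443 by edgeR). Leaving out any 1 library other than fibrosis 5 or control 3 ended that call (-0.39 to -0.31), and the adjusted p ranged between 0.00173 and 0.105 across alternatives. Kit, a stem cell factor receptor that erythroid and mast cell precursors carry, was at -0.15 ± 0.09.

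Of 18 tested genes of mature or migratory dendritic cells, 16 were higher, with a median of 0.72. Fscn1, the actin-bundling fascin of mature cells, rose by 1.59 ± 0.15 from 59.2 ± 8.01 to 178 ± 41.7 CPM (adjusted p = 1.82e-05 by edgeR). Tmem176a rose by 1.11 ± 0.16, Cd200 by 0.96 ± 0.13, the homing receptor gene Ccr7 by 0.69 ± 0.12 and the costimulatory receptor gene Cd40 by 0.54 ± 0.07. B cells express Ccr7 and Cd40 in their own right, so these values do not separate the cell types. With libraries scaled by B cell genes, which shifted the median gene by -0.23, 10 of the 18 mature genes were higher. Under that scaling 9 of 18 type 1 and 7 of 14 conventional genes were higher.

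Of 17 tested type 2 genes, 4 were higher and 2 lower, with a median of 0.02, close to the 0.05 of all genes. Over all tested genes 18.6% were higher and 17.2% lower, so these counts alone do not set the list apart. Esam, an adhesion molecule of Notch2-dependent type 2 cells that endothelium and platelets also carry, rose by 1.04 ± 0.20 (adjusted p = 0.00143 by edgeR). Clec4a4, the lectin-like receptor known as 33D1, rose by 0.79 ± 0.22 on a level of 2.65 ± 0.728 CPM in control, and was 0.65 without fibrosis 4 and 5 (adjusted p = 0.0532; 0.00329 to 0.103 over all alternatives). Epcam and Cd2 rose by 0.88 ± 0.22 and 0.55 ± 0.09, with Epcam not passing under B cell gene scaling (0.62, adjusted p = 0.0773 by edgeR). The lower genes were Cx3cr1 (-1.24 ± 0.16) and Zeb2 (-0.49 ± 0.15), both also expressed by monocytes, and 4 of 14 monocyte markers were lower, Cx3cr1 among them. Summed monocyte markers were at 1640 to 4680 CPM in fibrosis and 3310 to 5150 in control. Zeb2 lost its call without control 2 (-0.45, adjusted p = 0.0519 by edgeR; 6.88e-05 to 0.0519 over all alternatives). The factor gene Irf4 was at -0.11 ± 0.11 (0.046 without fibrosis 4 and 5) and Mgl2, a near relative of Clec10a, at 0.30 ± 0.28. Without fibrosis 4 and 5 the list had a median of -0.36, with 4 higher and 2 lower.

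Of 21 tested plasmacytoid genes, 3 were higher and 3 lower, with a median of 0.05. Those counts are no larger a share than the 18.6% and 17.2% of all tested genes. The higher genes, Ly6d (0.58 ± 0.11), Tcf4 (0.45 ± 0.13) and Cobll1 (0.44 ± 0.15), are expressed by B cells too. Of 14 B cell markers, 6 were higher, and 13 without fibrosis 4 and 5, where 18.4% of all tested genes were higher. With libraries scaled by those B cell genes, Ly6d was 0.37, Tcf4 0.23 and Cobll1 0.19 (adjusted p = 0.120, 0.251 and 0.223 by edgeR). For Cobll1 the call also ended when fibrosis 2 or 3, or control 1, 2, 4 or 5, was omitted (0.35 to 0.44), and the adjusted p ranged between 0.00133 and 0.223 across alternatives. The lower genes were Atp1b1 (-1.27 ± 0.15), Smim5 (-1.01 ± 0.20) and Upb1 (-0.76 ± 0.21). Ccr9, a gut-homing receptor of plasmacytoid cells, was at 0.49 ± 0.25 and Irf7, the regulator of type I interferon genes, at -0.39 ± 0.16 (adjusted p = 0.147 and 0.0790 by edgeR). Irf7 was lower without fibrosis 2 (-0.52, adjusted p = 0.0193; 0.00207 to 0.149 over all alternatives).

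**Figure D4:**
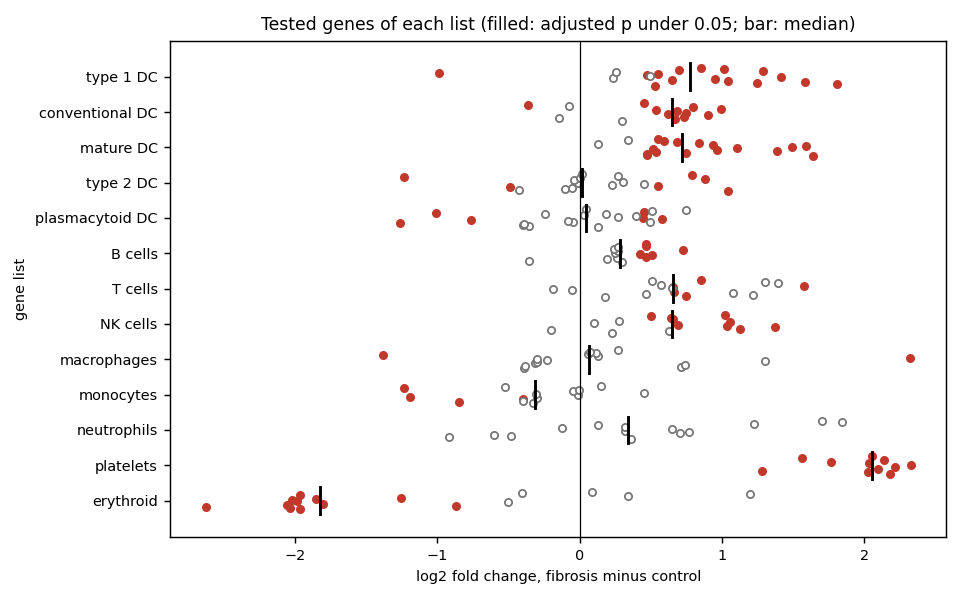
Log2 fold change of each tested gene (points; filled: adjusted p under 0.05 by edgeR) for 5 dendritic cell lists without the 9 markers and for 8 other cell types, with list medians as black bars. Medians are 0.78, 0.65 and 0.72 for the type 1, conventional and mature lists, and 0.02 and 0.05 for the type 2 and plasmacytoid lists. T and NK cell markers have medians of 0.66 and 0.65, near those of the conventional and mature lists. The medians are 0.34 for neutrophil, 0.28 for B cell, 0.06 for macrophage, -0.32 for monocyte, 2.05 for platelet and -1.83 for erythroid markers.

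Without fibrosis 4 and 5, 4 of the 9 markers were higher and Sirpa was lower, where 18.4% of all tested genes were higher and 18.8% lower. In that fit the type 1 list had 14 higher and 1 lower of 18, the conventional list 9 and 1 of 14, the mature list 13 higher of 18, and the plasmacytoid list 5 and 3 of 21. The medians were 0.64, 0.56, 0.67 and -0.04.

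The genes most like each marker were taken as the protein-coding genes whose log2 level, centred on the control mean, had the smallest root-mean-square difference from it over the 10 libraries. They were sought among 10985 genes of at least 2 CPM. For Xcr1 these were Dbn1 (0.13), Spsb1 (0.18) and Tlr11 (0.18), the last of them on the type 1 list. For Flt3 they were Traf1 (0.12), Pou6f1 (0.15) and Pcbp4 (0.15). Closest to Batf3 were Gmfg (0.12) and the ribosomal protein genes Rpl38 and Rps29 (0.13 each), and closest to Clec9a were Arhgap15, Casp1 and Arpin (0.21 each). Siglech was nearest to Ccr9 (0.24), another plasmacytoid gene, and to Klre1 (0.24). Sirpa was nearest to Pla2g15 (0.09), and Zbtb46 to Pak1ip1 (0.06). Cd209a and Clec10a had Zfp524 in common among their nearest 3 (0.18 and 0.27).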

How the data were processed

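Splenic B cell mRNA was purified with poly-T beads, copied with random hexamers and amplified, per the labels' protocols, and the submitters' processing notes name GRCm38 (mm10). No source used here names the aligner, counter or strandedness. The authors deposited whole-number read counts per gene and FPKM, per the file headers and values. Every deposited FPKM is the count over exon length and library total, times a factor per library of 0.935 to 1.07.

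Counts were fitted for the whole table by edgeR 4.0.16 (R 4.3.3): filterByExpr, TMM, quasi-likelihood test with robust dispersion, no covariate, Benjamini-Hochberg adjustment over 14283 genes, called under 0.05. SE is the absolute log2 change over the square root of F. The biological coefficient of variation was 0.183. The log2 ratios used a prior count of 2 and an exact permutation test over 252 assignments (smallest p = 0.00794). The code was tested on simulated counts. Replicates differed by a chi-square per degree of freedom of at least 4.02, so none was counted as a duplicate. Repeated symbols took the entry with the highest total, and 1 of 209 list symbols was absent.

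Members, lists and tests were chosen with earlier results of these data known, including that fibrosis 4 and 5 stand apart. Named genes are the 9 markers, up to 4 genes per list by p plus subset-defining genes, and 3 genes most like each marker. Which list genes define a subset was decided with their values in view, and Clec1b, Cd3e and Gp1bb were added after values were seen. Alternatives were other scalings (RLE, totals only, TMM without immunoglobulin, haemoglobin and erythroid genes, B cell genes), filters, DESeq2 1.42.0, limma 3.58.1 with voom or on log2 FPKM, a replicate block, and leaving libraries out.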

Additional observations from a re-analysis of the deposited data

Results flagged for a closer look

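Clec10a stood at 4.61 CPM in fibrosis 3, against 11.3 CPM in the next lowest fibrosis library, a gap of 0.807 of the group's range. In groups of 5 libraries a gap above 0.71 is marked, which chance gives in about 1 of 20 groups, and 18 groups (9 genes in 2 groups of libraries) were examined.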

How the results depend on the processing

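Over 22 alternatives each, the 9 markers kept their direction in all 198 fits, 1 of which lost a call and 7 of which gained one. For 39 other genes, 30 of 858 fits lost a call, 13 gained one and 2 reversed: Wdfy4 was -0.0072 with B cell gene scaling and Irf4 0.046 without fibrosis 4 and 5. Members called lower were 1 with totals only (Zbtb46) and 1 without fibrosis 4 and 5 (Sirpa). Scaling by B cell genes shifted the median gene by -0.23 and gave 762 higher and 3806 lower genes over all tested. Higher genes were 16.7% of the called genes in that fit, against 52.0% of the called genes in the main fit. Of the other dendritic cell genes, 27 were higher and 12 lower. Totals only gave 1777 higher and 3306 lower genes (35.0% of the called genes higher), with 11 of the other dendritic cell genes lower. The ratio of Xcr1 to Cd209a differed by 1.15 without fibrosis 4 and 5 (exact permutation p at its smallest possible, 0.0179, or 0.0536 adjusted) and by 0.85 to 1.13 with 1 library left out. That of Xcr1 to Siglech was 0.70 to 1.12, and that of Cd209a to Siglech -0.25 to 0.12 (0.010 without fibrosis 4 and 5), with 1 library left out. Replicate numbers are not tied to animals or days, and deviations of same-numbered libraries correlated at -0.25 to 0.42, 3 of 5 best with their own number. With the replicate number as a block (replicate block), 5 markers were higher, Clec10a being the added one (0.55, adjusted p = 0.0159 by edgeR), and the Xcr1 to Cd209a ratio, 0.97, had an adjusted exact permutation p of 0.188 in pairs, where no p under 0.0625 is possible. Depth was lowest for Siglech, at 36 to 118 counts per library.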
